A study of Mus musculus with 282 samples.

Results

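Granulocyte-monocyte progenitors (GMPs) that the authors' tables list as non-responsive to tumour necrosis factor (TNF) were compared with TNF cells listed as oscillatory or transient, here together called responding. The comparison was made in the experiment that filled 2 plates, using the stimulus and response class that the deposited cell tables give for each cell. It held 105 cells, 18 non-responsive and 87 responding (36 oscillatory and 51 transient), of 127 TNF cells in that experiment and of 282 samples in the series, each sample being 1 cell. The other 22 TNF cells carried other class entries and entered no comparison. An experiment of 1 plate, with 3 non-responsive and 45 responding TNF cells, served as a check. Non-responsive blank cells (34 beside the 105, and 13 on the single plate) gave the background level.

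All groups were bone marrow cells of mice aged 12 to 19 weeks, homozygous for GFP-p65 and heterozygous for H2BmCherry, and were kept for 8 h under a confocal microscope before single cells were picked by micromanipulator. The groups thus shared both reporter alleles and differed in stimulus (TNF or blank) and in response class. The series title concerns NfκB signalling dynamics, so the comparison asks which transcripts separate TNF cells with no response from those with one. The sources used here do not give how the classes were assigned, nor from which animals or cultures the cells came.

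TNF binds receptors on the cell surface and sets off a kinase cascade that frees NfκB, of which p65 is a subunit, from its cytoplasmic inhibitors. NfκB then enters the nucleus and switches on genes, among them those of its own inhibitors, and this feedback can send it in and out of the nucleus repeatedly. GMPs are bone marrow progenitors that give rise to granulocytes and monocytes, and inflammatory cytokines act on them directly. The files name genes by Ensembl mouse identifier, and 0 of the 55450 identifiers matched the reference gene table. Genes are therefore given by identifier and without a known role, and lists set by symbol, GMP markers among them, and sequences were not analysed here.

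Non-responsive cells were 7 of 59 TNF cells on Plate1 of the 2-plate experiment (11.9%, 95% exact Clopper-Pearson interval 4.91 to 22.9%) and 11 of 68 on Plate2 (16.2%, 8.36 to 27.1%). In the 1-plate experiment they were 3 of 51 (5.88%, 1.23 to 16.2%). The 3 intervals overlapped. Intervals cover counting error only, since the animals and cultures behind the cells of a plate are not given. The reads carry no molecular identifiers, which bears on read counts and not on these counts of cells.

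Non-responsive cells yielded about as many detected genes as responding cells on Plate1 and fewer on Plate2. On Plate1 the 7 non-responsive cells held 9462 to 10342 detected genes (median 10106) and the 45 responding cells 8605 to 10922 (median 9923). On Plate2 the 11 non-responsive cells held 4207 to 10277 (median 6590) and the 42 responding cells 4329 to 10915 (median 9668). Under 8000 genes were found in 6 of the 11 non-responsive cells (54.5%, 23.4 to 83.3%), 12 of the 42 responding cells (28.6%, 15.7 to 44.6%) and 2 of the 16 blank cells of Plate2. These 6 non-responsive cells stood apart from the other 5 in every quality measure. Their spike-in share was 6.89 to 14.6% of reads, against 1.16 to 2.34% in the other 5, and their 50 most abundant genes took 48.4 to 73.3% of reads, against 17.7 to 26.3%. On Plate1, 0 of 7 non-responsive and 0 of 45 responding cells had under 8000 genes, and in the 1-plate experiment 0 of 3 and 0 of 45. A count of 0 allows a share of up to 6.67% of 45 cells (3 counts of the total) and of up to 42.9% of 7 cells, and sets no limit for 3 cells. Results that rest on Plate2 were therefore also computed for cells with 8000 or more genes, which kept 5 non-responsive and 30 responding cells there.

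**Figure D1:**
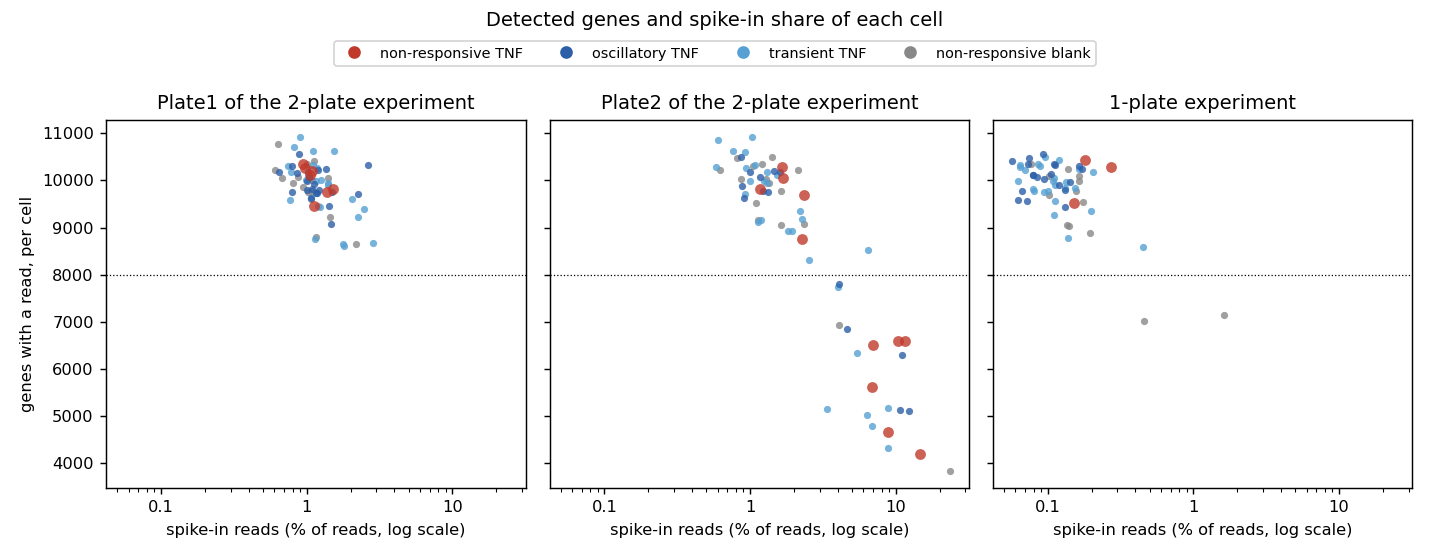
Genes with at least 1 read (y axis) against the spike-in share of reads (x axis, percent, log scale) for each cell, by plate and class, with a dotted line at 8000 genes. On Plate2, 6 of 11 non-responsive TNF cells lie under the line, with spike-in shares of 6.89 to 14.6%, and on Plate1 none of 7 does.

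No gene separated the classes at the test's threshold. Reads were summed per experiment and class (2819111 reads for the 3 and 26757369 for the 18 non-responsive cells), and edgeR's quasi-likelihood test of the 6 sums, with the experiment as a term, tested 14906 genes. At a Benjamini-Hochberg adjusted p under 0.05 it called 0 genes lower (0%) and 0 higher (0%) in non-responsive cells, with a smallest adjusted p of 0.195. At an unadjusted p under 0.05 it gave 923 genes, 588 lower and 335 higher, a split that moved with the scaling (442 and 451 with relative log expression factors, 523 and 37 with spike-in factors). DESeq2 on the same sums called 39 lower (0.262%) and 84 higher (0.564%). In 74 of those 84 and 15 of those 39, a single cell gave 50% or more of the reads of the higher class in at least 1 experiment, where the 1-plate sum of non-responsive cells held 3 cells. Without such a cell and with the same direction on all 3 plates there were 9 higher and 24 lower genes. In the 1-plate experiment the higher class held 3 cells for a higher gene and 45 for a lower gene. The 2 counts are thus not comparable. The experiment is the replicate (n = 2) and a term of the fit. These p-values thus set a class difference against how far class differences, blank sums included, varied between 2 experiments, which may be technical.

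Few genes differed at least 2-fold on both plates. Of 6785 genes with 20 CPM (reads of a gene scaled to a common library total) or more in the higher class on both plates, 118 were at least 2-fold lower in non-responsive cells on Plate1 (1.74%) and 269 on Plate2 (3.96%). At least 2-fold higher were 129 on Plate1 (1.9%) and 146 on Plate2 (2.15%). With 3 non-responsive cells, the 1-plate experiment gave 597 lower (8.8%) and 289 higher genes (4.26%). On both plates, 17 genes were at least 2-fold lower (0.251%) and 26 at least 2-fold higher (0.383%). Of these, 12 lower (0.177%) and 16 higher (0.236%) also had that direction in the 1-plate experiment. Among cells with 8000 or more genes the counts on both plates were 19 (0.28%) and 32 (0.472%), of which 14 (0.206%) and 21 (0.31%) had the direction in the 1-plate experiment. Across the 6785 genes the log2 ratios of Plate1 and Plate2 had a Pearson correlation of 0.16, those of Plate1 and the 1-plate experiment 0.20, and those of Plate2 and the 1-plate experiment 0.10. These are descriptions across genes, which are not independent, and ratios within a plate rest on 3 to 11 non-responsive cells.

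**Figure D2:**
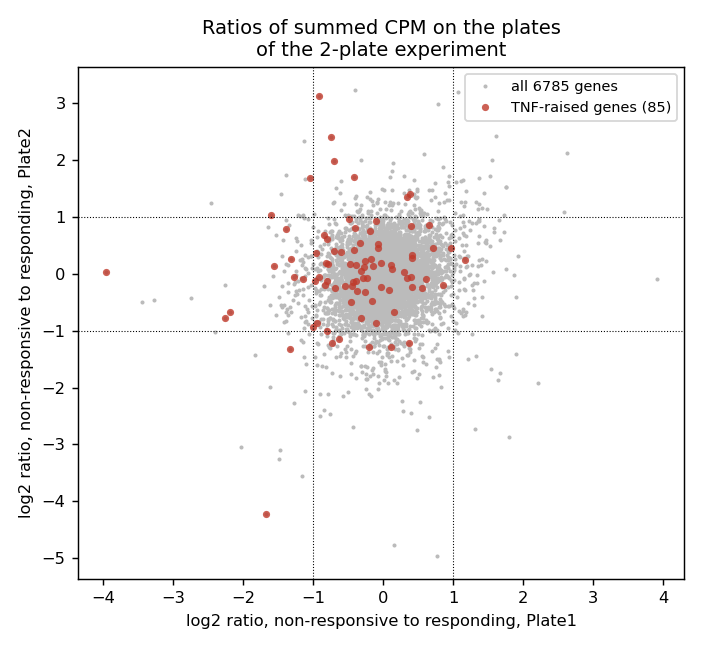
Log2 ratio of summed CPM, non-responsive to responding TNF cells, on Plate1 (x axis) and Plate2 (y axis) for 6785 genes (grey), with 85 TNF-raised genes in red and dotted lines at 2-fold. Of all genes, 17 lie in the lower left corner and 26 in the upper right.

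Genes chosen as raised by TNF were also higher in non-responsive TNF cells than in blank cells, on every plate and without a test. To measure this, genes at least 4-fold higher in responding than in blank cells were chosen in one experiment and read in the other, so that no cell served for both. The 1-plate experiment gave 107 such genes, read in the 2-plate cells, and the 2-plate experiment gave 61, read in the 1-plate cells, with 37 in both lists. On Plate1 the median log2 difference from blank cells over the 107 genes was 1.45 in non-responsive and 1.72 in responding cells. On Plate2 it was 1.39 and 1.42, and 1.49 and 1.41 among cells with 8000 or more genes. In the 1-plate experiment, over the 61 genes, it was 2.72 and 2.79. Over all 6785 genes the same medians were -0.03 and -0.03 on Plate1, -0.22 and -0.17 on Plate2, and -0.07 and 0.02 in the 1-plate experiment.

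Each cell's TNF-raised score, the mean log2(CPM + 1) over the list, overlapped between non-responsive, responding and blank cells. On Plate1 it was 2.46, 3.67, 4.04, 4.14, 4.59, 5.55 and 6.28 in the 7 non-responsive cells. The 45 responding cells ran from 2.82 to 6.71 (median 5.23) and the 18 blank cells from 1.86 to 4.64 (median 2.89). Of the 7 non-responsive cells, 6 lay above the blank median, 2 above the highest blank cell and 2 above the responding median. Responding cells lay above the highest blank cell in 27 of 45.

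On Plate2 the 11 non-responsive cells ran from 1.96 to 6.11 (median 4.12), the 42 responding cells from 1.66 to 6.50 (median 3.93) and the 16 blank cells up to 4.49 (median 3.08). Of the 11, 8 lay above the blank median, 3 above the highest blank cell and 6 above the responding median. The cells with under 8000 genes scored lower in each class, with medians of 3.25 in 6 non-responsive and 2.93 in 12 responding cells. Among cells with 8000 or more genes, 5 of 5 non-responsive cells lay above the blank median and 3 of 5 above the highest blank cell, against 27 and 12 of 30 responding cells. In the 1-plate experiment the 3 non-responsive cells scored 3.75, 4.26 and 5.88, and all 3 lay above the highest blank cell, at 3.43, as did 33 of 45 responding cells.

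**Figure D3:**
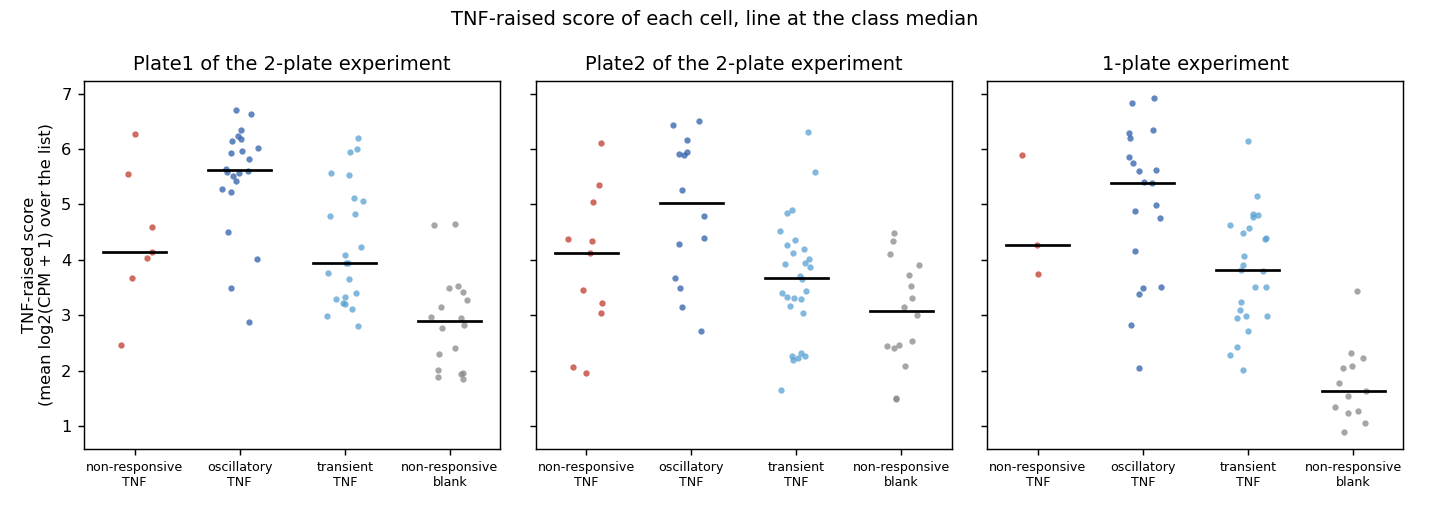
TNF-raised score (mean log2(CPM + 1) over 107 genes in the 2-plate and 61 genes in the 1-plate experiment) of each cell by plate and class, with a line at the class median. Non-responsive TNF cells run from 1.96 to 6.28 over the 3 plates, across the span of the responding classes.

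The mean score of non-responsive cells differed from that of responding cells in opposite directions on the plates. It was 4.39 ± 1.25 (SD over 7 cells) against 4.86 ± 1.19 (45 cells) on Plate1, and 3.92 ± 1.31 (11 cells) against 4.06 ± 1.28 (42 cells) on Plate2. In the 1-plate experiment it was 4.63 ± 1.11 (3 cells) against 4.35 ± 1.31 (45 cells). The differences, non-responsive minus responding, were -0.47, -0.15 and 0.28, with an SD of 0.38 over the 3 plates. On Plate2 the difference was 0.31 among cells with 8000 or more genes and 0.12 among cells thinned to 400000 reads, which left out the shallower cells and kept 7 of 11 non-responsive and 37 of 42 responding cells. The direction on Plate2 thus differed between these sets of cells.

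The responding class held cells of different score, and the mean of non-responsive cells lay between the means of its subclasses, while single cells overlapped. The mean score of oscillatory cells was 5.49 on Plate1, 4.90 on Plate2 and 5.01 in the 1-plate experiment, and that of transient cells 4.26, 3.65 and 3.82. Non-responsive cells were below oscillatory cells on every plate (differences of -1.10, -0.98 and -0.38) and above transient cells on every plate (0.13, 0.27 and 0.81). The median log2 ratio over the list was -0.58, -0.54 and -0.44 against oscillatory and 0.11, 0.43 and 0.60 against transient cells. Over all 6785 genes it was 0.01, 0.03 and -0.08 against oscillatory and -0.01, -0.09 and -0.10 against transient cells. Among Plate2 cells with 8000 or more genes, the list median was -0.53 against oscillatory and 0.57 against transient cells. Over all 6785 genes the medians among these cells were 0.06 and -0.03. Oscillatory cells made up 22 of 45 responding cells on Plate1, 14 of 42 on Plate2 and 20 of 45 in the 1-plate experiment. With 3 plates of 2 experiments, the differences are descriptions and have no test.

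A second pair of lists read how near single cells came to either subclass. Genes at least 2-fold higher in oscillatory than in transient TNF cells of the other experiment (289 genes read in the 2-plate and 247 in the 1-plate cells) gave an oscillatory-high score. Genes at least 2-fold higher in transient cells (125 and 98 genes) gave a transient-high score. Of the non-responsive cells, 5 of 7 on Plate1, 8 of 11 on Plate2 and 2 of 3 in the 1-plate experiment had an oscillatory-high score nearer to the transient than to the oscillatory median of their plate. At or above the oscillatory median were 2 of 7, 2 of 11 and 1 of 3. On Plate1 the 7 cells ran from 2.46 to 6.14, beside medians of 5.02 in oscillatory, 3.36 in transient and 3.43 in blank cells. The transient and blank medians were thus close there, so a score near the transient median does not tell transient from blank cells. The list genes were also higher in responding than in blank cells, with median log2 differences of 0.95, 0.43 and 1.03 on Plate1, Plate2 and the 1-plate experiment. How many transient or blank cells lay nearer to the transient median was not counted. Among the 7 non-responsive cells of Plate1, the one with the highest oscillatory-high score, at 6.14, had the lowest transient-high score, at 2.06. In the 1-plate experiment the non-responsive cell at 6.12 had the lowest transient-high score of the 3, at 2.55. Responding cells of Plate1 ran from 2.26 to 6.35 in the oscillatory-high score. Single non-responsive cells there thus lay near both ends of the range of responding cells. Of the 5 Plate2 cells with 8000 or more genes, 3 lay nearer to the transient median.

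**Figure D4:**
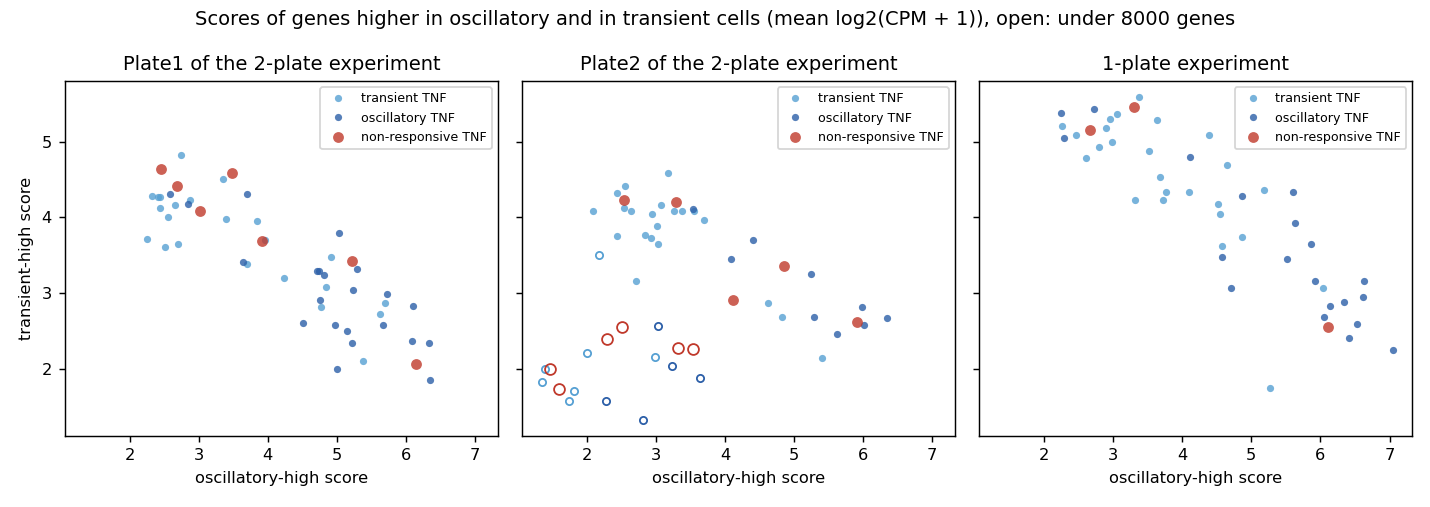
Oscillatory-high score (x axis) against transient-high score (y axis), both mean log2(CPM + 1), for each TNF cell by plate and class, with open circles for cells with under 8000 genes. Non-responsive cells lie among transient as well as oscillatory cells, and the 6 open non-responsive cells on Plate2 have transient-high scores of 1.73 to 2.55 and oscillatory-high scores of 1.47 to 3.54.

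Of the TNF-raised genes, 2 were at least 2-fold lower in non-responsive cells on both plates. Among these 2 was ENSMUSG00000029413, chosen in the 1-plate experiment. In the 2-plate experiment its responding cells were not above blank cells. They were at 110 and 110 CPM on Plate1, and at 78.8 and 161 CPM on Plate2. Of the 107 genes, 85 reached 20 CPM as above, and the 2 genes were 2.35% of these, beside 0.251% of all 6785 genes. Of the 85, 0 were at least 2-fold higher on both plates, beside 0.383% of all genes. On Plate1, 70 of 107 were lower by any amount (65.4%, beside 52% of all genes), with a median log2 ratio of -0.29. There, 14 were at least 2-fold lower (13.1%, beside 1.74%) and 3 at least 2-fold higher (2.8%, beside 1.9%). On Plate2, 52 of 107 were lower (48.6%, beside 55%), with a median of 0.03. There, 11 were at least 2-fold lower (10.3%, beside 3.96%) and 11 at least 2-fold higher (10.3%, beside 2.15%). Of the 61 genes read in the 1-plate experiment, 29 were lower (47.5%, beside 57.6%), with a median of 0.10. There, 16 were at least 2-fold lower (26.2%, beside 8.8%) and 8 at least 2-fold higher (13.1%, beside 4.26%). The shares in both directions thus lay above those of all genes on each plate. The medians over all 6785 genes were -0.02, -0.06 and -0.10. The 6785 genes reached 20 CPM on Plate1 and Plate2 by choice. No such limit was set for the 107 and 61 genes on the plates where they were read. Their 2-fold shares are thus not matched in level to those of all genes.

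ENSMUSG00000022126 and ENSMUSG00000026875, chosen after their values were seen, had the largest rises over blank cells among the 37 genes of both lists. ENSMUSG00000022126 was at 285 CPM in the sum of the 7 non-responsive cells of Plate1 (0 to 1661 CPM over cells, median 19.5), 174 CPM in responding and 0.534 CPM in blank cells. On Plate2 it was at 507 CPM in non-responsive (9 of 11 cells with a read), 372 CPM in responding and 10.3 CPM in blank cells. Its levels in the 1-plate experiment were 42.9, 99.4 and 0.328 CPM in the same order, and all 3 non-responsive cells had reads. A single cell gave 81.5% of the non-responsive reads on Plate1 and 69.4% on Plate2. Without that cell the levels of ENSMUSG00000022126 were 61.4 and 195 CPM, below the responding cells. Non-responsive cells were thus above blank cells on every plate also without it, while their order against responding cells on Plate1 and Plate2 rested on 1 cell each. Responding and the same blank cells set the ranking of both genes, so their low blank level is given by the choice. Non-responsive cells did not enter that ranking.

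ENSMUSG00000026875 was at 106 CPM in non-responsive, 79 CPM in responding and 0.200 CPM in blank cells of Plate1. On Plate2 it was at 200, 235 and 7.19 CPM, with reads in 11 of 11 non-responsive and 5 of 16 blank cells. Its levels in the 1-plate experiment were 72.7, 53.1 and 1.48 CPM, and 81.5% of the non-responsive reads there came from 1 of the 3 cells. Without the non-responsive cell with the most reads, the levels were 66.4 CPM on Plate1, 126 CPM on Plate2 and 23.6 CPM in the 1-plate experiment, below responding and above blank cells on each plate. The edgeR log2 fold change, non-responsive minus responding, was 0.22 ± 0.22 (SE, adjusted p = 0.859) for ENSMUSG00000026875 and -0.38 ± 0.49 (adjusted p = 0.898) for ENSMUSG00000022126. Neither gene passed the test.

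Of single genes, ENSMUSG00000027315 and ENSMUSG00000029413 were taken as lower in non-responsive cells, and ENSMUSG00000028184 and ENSMUSG00000022237 as higher in them. They had the largest smaller ratio of both plates, with the same direction on all 3 plates and no cell giving 50% of the higher class's reads on either plate, so their direction on the plates is given by the choice. With its default filter, edgeR called none of the 4, and with no filter on low counts it called ENSMUSG00000027315 and ENSMUSG00000028184. Among cells with 8000 or more genes the Plate2 log2 ratios were -2.81, -4.28, 1.88 and 1.37 in this order, and those over all cells were -3.04, -4.22, 1.67 and 1.45.

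ENSMUSG00000027315 had reads in 3 of 7 non-responsive and 25 of 45 responding cells on Plate1, 4 of 11 and 15 of 42 on Plate2, and 1 of 3 and 27 of 45 on the single plate. Its level was 11.3 against 49.1 CPM on Plate1, 2.32 against 26.3 CPM on Plate2 and 9.58 against 52.3 CPM in the 1-plate experiment, log2 ratios of -2.03, -3.04 and -2.33. The highest non-responsive cell of Plate1 was at 33 CPM and the highest responding cell at 318 CPM, while the lowest cell of each class was at 0, so single cells overlapped. Blank cells stood at 39, 46.9 and 28 CPM, above non-responsive cells on each plate. Oscillatory cells were at 67, 67.1 and 74.8 CPM and transient cells at 31.2, 3.55 and 31.4 CPM. A single cell gave 74.7% of the transient reads on Plate1 and 62.4% on Plate2. Without that cell transient cells were at 8.58 and 1.39 CPM, under the non-responsive level. The order against transient cells thus turned with 1 cell on Plate1 and Plate2. In the 1-plate experiment transient cells stayed above, at 21.5 CPM without their highest cell. The edgeR log2 fold change was -2.51 ± 0.41 (SE, unadjusted p = 0.000701, adjusted p = 0.740), and DESeq2 gave -2.44 (adjusted p = 2.13e-05).

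ENSMUSG00000029413 was at 33.8 against 110 CPM on Plate1, 3.29 against 78.8 CPM on Plate2 while the 1-plate levels were 57.1 and 107 CPM. Reads were found in 5 of 7, 9 of 11 and 2 of 3 non-responsive cells. On Plate2 no non-responsive cell exceeded 17.1 CPM, while the highest responding cell reached 699 CPM. Against oscillatory cells (149, 134 and 189 CPM) it was lower on each plate. Transient cells were at 71.2, 48.3 and 30.5 CPM, of which 1 cell gave 61.7% of the reads on Plate1 and 72.9% on Plate2. Without that cell they were at 29.6 CPM on Plate1, under the non-responsive level, and 13.8 CPM on Plate2. In the 1-plate experiment 78.9% of the non-responsive reads came from 1 cell, and the level without it was 21.1 CPM, under the transient one. The order against transient cells thus turned with 1 cell on Plate1 and in the 1-plate experiment. The gene is among those chosen as raised by TNF in the 1-plate experiment, where blank cells were at 20.7 CPM. In the 2-plate experiment blank cells were at 110 CPM on Plate1, as responding cells were, and at 161 CPM on Plate2. The edgeR log2 fold change was -1.45 ± 0.87 (SE, adjusted p = 0.760), and with transient cells alone as the responding class it was -0.02.

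ENSMUSG00000028184 had reads in 7 of 7 non-responsive and 30 of 45 responding cells on Plate1, and in 8 of 11 and 23 of 42 on Plate2. Its level was 56.3 against 21.3 CPM on Plate1, 58.4 against 17.6 CPM on Plate2 and 429 against 53.9 CPM in the 1-plate experiment. The 3 cells of the 1-plate experiment were at 0, 473 and 1098 CPM, so that level rests on 2 cells, and without the higher of them it was 202 CPM. The highest responding cell of Plate1, at 285 CPM, exceeded the highest non-responsive cell, at 165 CPM, and the classes overlapped. Blank cells were at 15.2, 35.6 and 75.5 CPM. The edgeR log2 fold change was 2.28 ± 0.38 (SE, adjusted p = 0.740), and DESeq2 gave 2.36 (adjusted p = 6.82e-06). A single cell gave 64.8% of the non-responsive reads of the 1-plate experiment. The DESeq2 call is thus among the 74 of 84 with such a cell.

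ENSMUSG00000022237 had reads in 6 of 7 non-responsive and 31 of 45 responding cells on Plate1, 10 of 11 and 34 of 42 on Plate2, and 3 of 3 and 34 of 45 in the 1-plate experiment. Its level was 27 against 11.4 CPM, 57.2 against 20.4 CPM and 171 against 30.2 CPM in the same order, the 1-plate level being 109 CPM without the cell with the most reads. Blank cells were lower than both TNF classes on each plate, at 1.27, 8.41 and 11.5 CPM. On Plate2 the non-responsive median of 54.9 CPM lay above the oscillatory (6.47 CPM) and transient (16.1 CPM) medians, and the highest cell was a transient one at 257 CPM. The edgeR log2 fold change was 1.95 ± 0.35 (SE, adjusted p = 0.740), and DESeq2 gave 2.02 (adjusted p = 9.57e-05). This DESeq2 call is also among the 74 of 84, since a single cell gave 56.4% of the non-responsive reads of the 1-plate experiment.

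**Figure D5:**
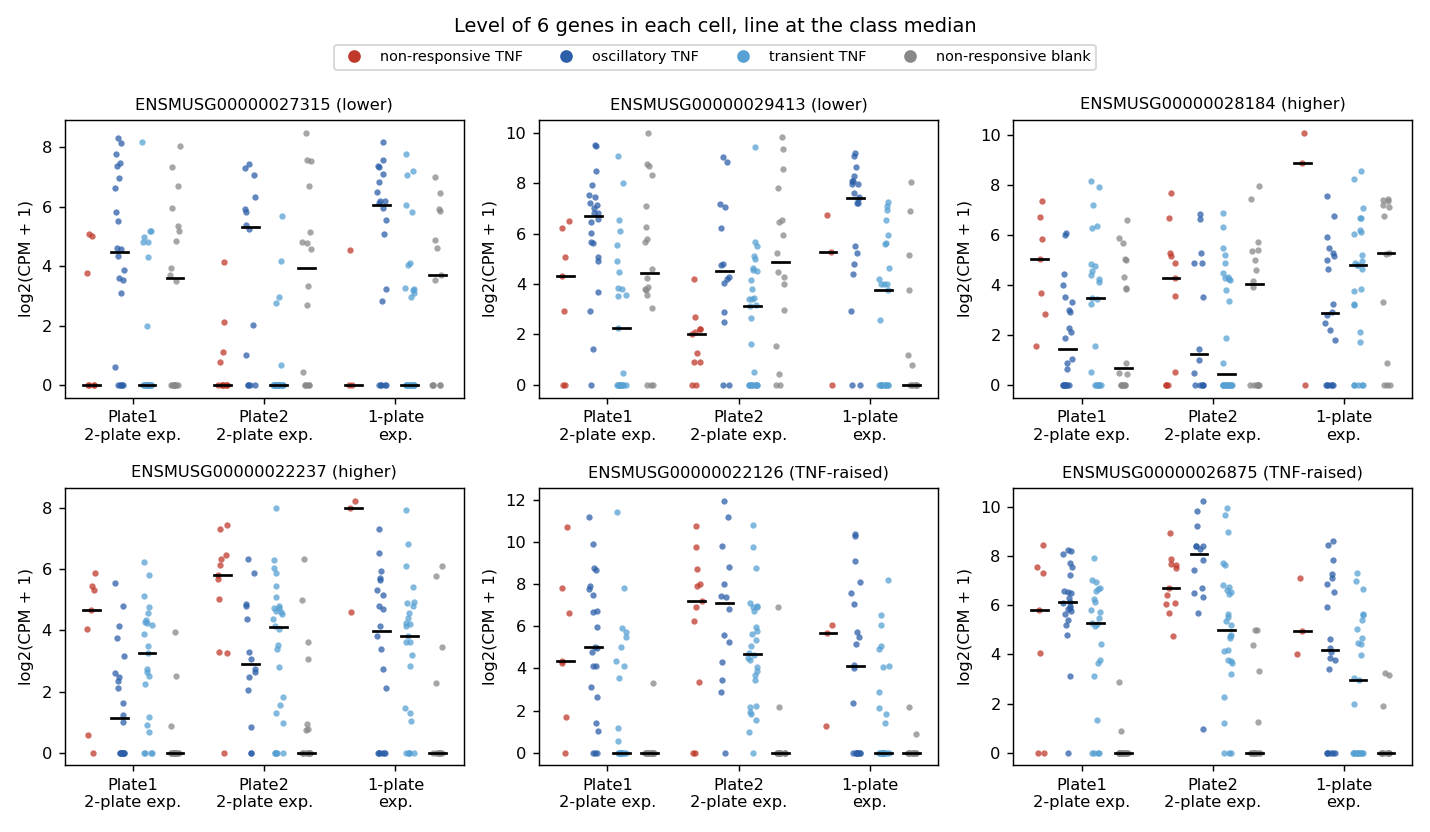
Level of 6 genes as log2(CPM + 1) in each cell (y axis) by plate and class, with a line at the class median. Lower, higher and TNF-raised in the titles state how a gene was chosen. Points of non-responsive and responding cells overlap for every gene and plate, and the TNF-raised genes have a blank median of 0 on each plate.

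The authors' cell cycle phases were spread over the non-responsive cells. Of the 21 non-responsive cells of both experiments, 7 were listed as G1, 6 as S and 8 as G2M (38.1%, 18.1 to 61.6%), beside 34, 23 and 75 of 132 responding cells (G2M 56.8%, 47.9 to 65.4%) and 27 of 47 blank cells in G2M (57.4%). On Plate1 G2M held 4 of 7 non-responsive and 28 of 45 responding cells, and on Plate2 3 of 11 and 19 of 42. Among cells with 8000 or more genes it held 7 of 15 (46.7%) and 72 of 120 (60%), with intervals of 21.3 to 73.4% and 50.7 to 68.8% that overlapped. Within G2M cells of the 2-plate experiment with 8000 or more genes, the TNF-raised score was 5.01 ± 1.08 (SD over 6 cells) in non-responsive and 4.81 ± 1.10 (44 cells) in responding cells. Within G1 it was 4.07 ± 1.46 (4 cells) and 5.06 ± 1.27 (19 cells). Within S, non-responsive cells were at 4.14 on Plate1 and 4.34 on Plate2, and responding cells ran from 2.24 to 5.95. The difference thus had opposite signs in G2M and G1, on few cells and with Plate1 and Plate2 pooled.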

How the data were processed

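Single cells were processed by an adapted Smart-Seq2 protocol, per the labels' protocols. The authors deposited read counts per Ensembl gene, made with SAMtools, Subread 1.5.0 and featureCounts per the submitters' processing notes. Build, annotation and use of strand remain not given in the sources used here. Overlapping genes and near-identical copies can therefore share reads. The deposited cell tables of the authors give stimulus, class, phase and phase scores as a fraction. The phase was used as listed.

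Cells were matched by well and plate. Left out were 357 columns with no matching sample and 44 samples absent from the cell tables. Library sizes exclude 92 spike-in features, and 0 cells had identical columns. Doublets were not called. Each compared TNF cell had 182301 to 3380416 reads (median 1343305). Sums per experiment and class (non-responsive TNF, responding TNF, non-responsive blank) were tested two-sided with edgeR 4.0.16 in R 4.3.3 (default filter, TMM, experiment term, 2 residual and 4.29 prior degrees of freedom). The standard error is the size of the log2 fold change over the square root of F. The edgeR fit was also run on simulated counts with changed genes. The share of these it recovered is not given here, so 0 called genes is not read as no difference. Alternatives used DESeq2 1.42.0, limma 3.58.1, other filters, factors, sums and cells.

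Levels are CPM of summed counts. List genes had a 4-fold difference (2-fold between subclasses), 20 CPM, reads in 50% of cells of the higher class and no cell with 50% of reads. Plate ratios used a pseudocount of 1 CPM. The named genes have the largest smaller ratio of both plates, limited to 2 per direction because identifiers could not be paired with symbols, and predicted and sex-linked genes could not be left out. Members and lists were chosen with earlier results of these data known. The list thresholds were set after lists from other sources and with a 2-fold threshold had been examined, so list values carry no test.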

Additional observations from a re-analysis of the deposited data

How the results depend on the processing

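The edgeR count of 0 called genes became 123 with DESeq2 (39 lower, 84 higher), 15 with no filter on low counts (9 lower, 6 higher), 2 with oscillatory cells alone as the responding class, and 1 each without the blank sums, with spike-in factors, and with cells of 8000 or more genes summed per plate, the last chosen after seeing the data. It was 0 in the other settings run, among them each plate of the 2-plate experiment left out, thinned cells, the stricter filter and equal weight of cells in limma. The cause of these differences was not tested. Spike-in factors moved the median log2 fold change of all genes from -0.12 to -0.81; the 4 genes named for their ratios kept their direction relative to it. Over 72 tested settings for these 4 genes, 67 gave the same call, 5 passed the threshold and 0 reversed, though ENSMUSG00000029413 was at -0.02 with transient cells alone. With the 2-plate experiment alone and sums per plate, the 4 genes stood at -2.64, -2.67, 1.54 and 1.34, and 0 genes were called. Summed per experiment, leaving out the 1-plate or the 2-plate experiment gives values with no test: -2.32 and -2.33 for ENSMUSG00000027315, -2.25 and -0.89 for ENSMUSG00000029413, 1.49 and 2.97 for ENSMUSG00000028184, and 1.38 and 2.46 for ENSMUSG00000022237. The score difference moved with the responding subclass to -1.10, -0.98 and -0.38 (oscillatory alone) and 0.13, 0.27 and 0.81 (transient alone) on Plate1, Plate2 and the 1-plate experiment, and on Plate2 to 0.31 with cells of 8000 or more genes. With genes raised at least 2-fold, a list added after seeing the data, it was -0.16, -0.37 and 0.13. Settings of the fit (factors, tests, filters, terms) do not enter the scores and were not run for them. By replicate number, no paired analysis was possible because these numbers only name wells. The plate does pair the classes, and sums per plate with the plate as a term called 0 genes, as did the fit without the experiment term. Without the non-responsive cell with the most reads of a gene, a setting added after seeing the data, the plate ratios of the 4 genes kept their sign. For ENSMUSG00000027315 and ENSMUSG00000029413, chosen as lower, leaving out that cell made each ratio more negative. The setting thus could not turn their sign and is a check of the 2 higher genes only. Ratios without the responding cell with the most reads were not run. The 3 non-responsive cells of the 1-plate experiment and the 11 of Plate2, 6 with few genes, limit the precision of every comparison.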
